A study of Drosophila melanogaster with 8 samples.

Results

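DNA transposons and INE-1 elements are mobile DNA that lies in the Drosophila melanogaster genome as many old copies, most of them shortened. They were taken from the count table by name: a row was included when its symbol carries the braces of a transposon insertion and the family before the braces is a DNA transposon family or INE-1. The rule found 2985 insertions, out of 5416 transposon insertions of every class and 22887 features in the table. Of the 24 family names searched, 21 had at least 1 insertion. The names hobo, S-element and P-element matched no row, which does not show that these elements are absent under other symbols.

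DNA transposons move by cutting and pasting, with a transposase that recognises short inverted repeats at the ends of the element. Pogo, mariner2, the Tc1-related families, S and Bari belong to the Tc1/mariner superfamily, 1360 is related to the P element, and transib elements are relatives of the ancestor of the RAG1 recombinase. FB, or foldback, elements have very long inverted repeats, and NOF is the coding segment that some FB elements carry. INE-1 belongs to the rolling-circle Helitron-like elements and is the most numerous element of the fly genome, with much of it in heterochromatin and on chromosome 4. In fly testes, transposon RNA is held down by Piwi-interacting RNAs (piRNAs) and by heterochromatin. Because most copies are fragments inside or near genes, RNA that maps to a copy can come from the element's own promoter or from the gene around it.

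The data are total RNA counts from dissected testes of 5-day-old flies in 4 groups of 2 libraries. The groups were w1118, a white-eyed laboratory strain that served as control, single mutants of Tailor and of Dis3L2, and the Tailor/Dis3L2 double mutant. Tailor adds uridines to RNA 3' ends, and Dis3L2 is a 3'-to-5' exonuclease that degrades uridylated RNA, so the comparisons ask what losing either step, or both, does to testis RNA. The labels give independent dissections for the 2 libraries of a group. The labels name neither allele nor parent strain, so genotype and strain background, including which insertions a strain carries, cannot be told apart. Levels are given as CPM, the counts of a row scaled to a common library size. The Tailor row had 82.6 and 87.0 CPM (w1118), 19.0 and 20.45 (Tailor mutant), 96.8 and 95.6 (Dis3L2 mutant) and 22.8 and 21.1 (double mutant). The Dis3l2 row, listed as CG16940, had 115.8 ± 1.1 CPM (SD, n = 2) in w1118, then 91.7 ± 3.0, 10.3 ± 0.4 and 30.7 ± 0.04 in the mutants in that order. Both rows match the labels.

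Total counts per library ran from 9781275, in double mutant replicate 2, to 30059737, in double mutant replicate 1. The insertions took 0.0265% to 0.0493% of a library. Summed over 14 germline and sperm markers, with no marker at 0, the libraries held 7218 and 7482 CPM (w1118), 8338 and 6453 (Tailor mutant), 6967 and 7556 (Dis3L2 mutant) and 9384 and 9400 (double mutant). Summed over 11 accessory gland genes they held 3148 to 4228 CPM in the Dis3L2 mutant, 9125 to 13050 in w1118, the double mutant and Tailor mutant replicate 2, and 37950 in Tailor mutant replicate 1; none was at 0, and their part in the results was not tested. In bulk testes, fewer cells of a type and less RNA per cell cannot be told apart.

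The RNA of these elements came from few copies. Of the 2985 insertions, 1194 had no count in any library and 1116 had 1 to 9 counts over all 8 libraries together. The filter on low counts, a minimum of about 10 counts in 2 libraries, kept 184, which held 77.04% of the 67091 counts of all the insertions. The tested insertions had a median length of 493 bp, against 181 bp for the 2801 that were not tested. A median of 126 counts over all libraries lay behind each tested insertion, from 31 to 7271, and 3 counts corresponded to 0.0963 CPM in the deepest library and 0.312 CPM in the shallowest.

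By summed counts INE-1 came first, with 2234 insertions and a mean of 227 CPM over the 8 libraries. Mariner2 followed with 37.3 CPM from 23 insertions, then 1360 with 25.2 CPM from 303 and FB with 20.01 CPM from 60. Next were HB at 16.3 CPM, transib2 at 15.3, S at 10.7 and pogo at 8.00. The remaining 13 families were each below 6 CPM; looper1 had 3 counts in all and transib1 had none. Per kb of insertion sequence the order changed: mariner2 was highest at 2.59 CPM per kb, followed by transib2 at 0.693, Tc3 at 0.642, INE-1 at 0.413 and FB at 0.385, while 1360 had 0.114. Neighbours in the order by sum, such as HB, transib2 and S, overlapped in their ranges over the 8 libraries.

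**Figure D1:**
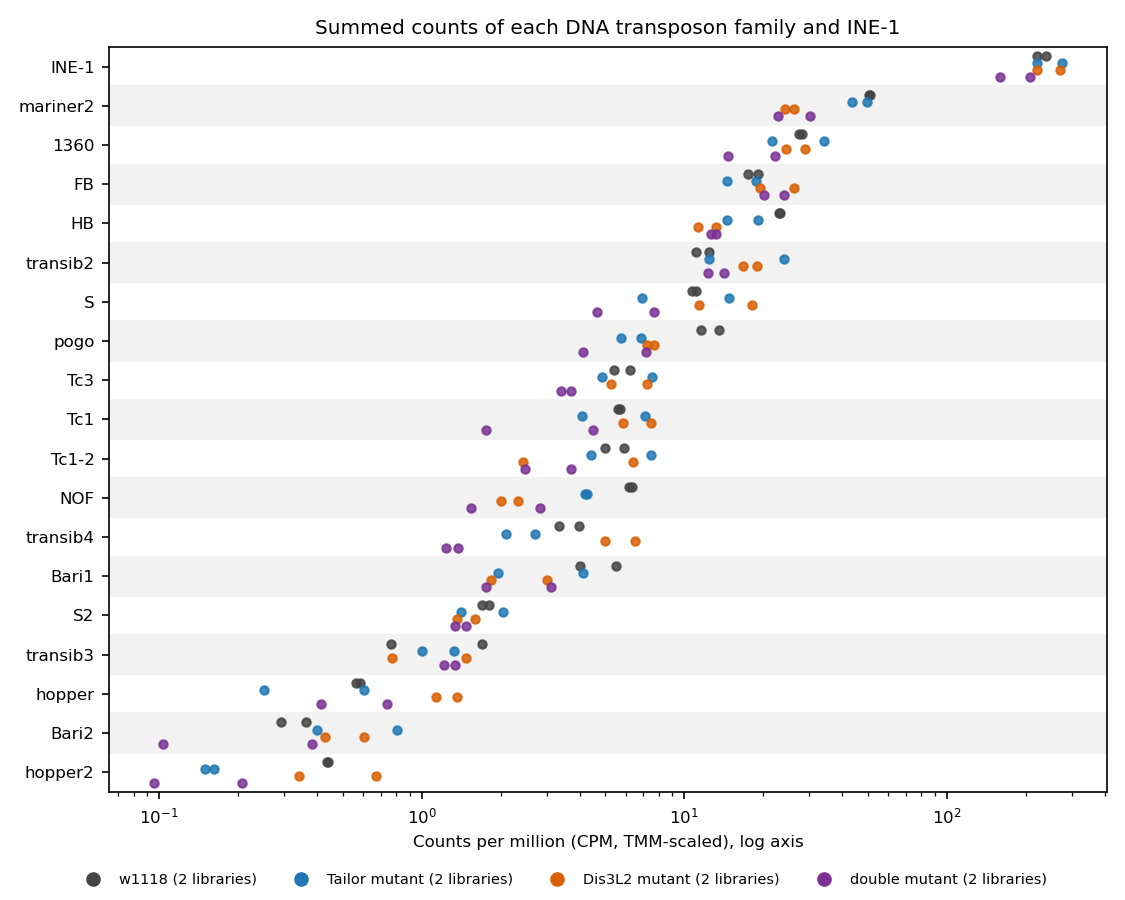
Each point is the summed level of a family in 1 library, in TMM-scaled CPM on a log axis, for the 19 families with enough counts to test; colours mark the 4 groups. Mariner2, HB and NOF lie lower in both Dis3L2 mutant and both double mutant libraries than in w1118, while the INE-1 points of w1118 and the single mutants overlap.

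A single copy held much of the signal in several families. INE-1{}5332, a 35 bp fragment in an exon of the noncoding gene CR33319 (chromosome arm 2L, 20929426 to 20929460, plus strand, Ensembl annotation in dm6 coordinates), had 42.1 CPM and 18.6% of all INE-1 counts. Its gene CR33319 ran between 115.9 and 189.8 CPM. Mariner2{}522 held 45.9% of the mariner2 counts, FB{}1604 57.0% of the FB counts, transib2{}3740 72.6% of the transib2 counts, S{}1623 52.2% of the S counts, and NOF{}1599 94.98% of the NOF counts. FB{}1604, 8160 bp long and overlapping an exon of CG7369, showed 11.7 and 11.7 CPM (w1118), 9.12 and 10.4 (Tailor mutant), 13.7 and 11.8 (Dis3L2 mutant) and 12.1 and 10.4 (double mutant). Both Tailor mutant libraries were below w1118 and both Dis3L2 mutant libraries above it, the double mutant overlapped w1118, and the copy was called in none of these 3 comparisons. Transib2{}3740, 686 bp from the ribosomal protein gene RpL38, had its lowest values in w1118, 6.11 and 7.34 CPM, against 19.4 and 8.32 in the Tailor mutant and 12.8 and 14.0 in the Dis3L2 mutant. None of its 3 tests against w1118 passed, with adjusted p between 0.150 and 0.294.

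Family sums were tested with edgeR's quasi-likelihood test in a table where every transposon family is 1 row beside all genes, and a change was called at a Benjamini-Hochberg adjusted p of 0.05 or less over all 13605 rows. No family was called in the Tailor mutant, where 1.92% of all rows were called; 3 of the 19 families had an unadjusted p under 0.05, and DESeq2 also called 0. In the Dis3L2 mutant 3 of 19 families fell and none rose, beside 9.30% of all rows called. In the double mutant 5 fell and none rose, beside 11.3% of all rows. Mariner2, HB and NOF were called in both, and pogo and transib4 in the double mutant. The median log2 change over the 19 families was -0.06, 0.10 and -0.78 in the Tailor, Dis3L2 and double mutants, against 0.02, 0.00 and -0.06 over all rows. Both mutants were compared with the same w1118 libraries, so their calls are not independent. Omission of a library leaves a single library in its group. In the fit of single insertions and genes, omitting a w1118, Dis3L2 or double mutant library lowered the calls over all features in every comparison. Omitting a Tailor mutant library raised them. A call lost in an omission, here and below, is therefore not by itself a trait of these elements. Without either w1118 library 0 families were called in either comparison, and the log2 changes below moved by less than 1.5 times unless stated.

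Mariner2 summed to 50.5 and 51.1 CPM (w1118), 49.9 and 43.7 (Tailor mutant), 24.3 and 26.2 (Dis3L2 mutant) and 30.1 and 22.8 (double mutant). Both Dis3L2 mutant and both double mutant libraries were below the other 4. The log2 change was -1.01 ± 0.17 (SE, n = 2 and 2 libraries; adjusted p = 0.0124) in the Dis3L2 mutant and -0.93 ± 0.17 (adjusted p = 0.0158) in the double mutant, and the Tailor mutant stood at -0.12 ± 0.16 (adjusted p = 0.813). Mariner2 was higher in the Tailor mutant than in the Dis3L2 mutant by 0.89 ± 0.17 (adjusted p = 0.0157), a call lost without either Dis3L2 library and with only the 4 libraries of those groups in the fit (adjusted p = 0.0734). It was lower in the double mutant than in the Tailor mutant, at -0.82 ± 0.17 (adjusted p = 0.0217), a call lost without either w1118 library (0.0615 and 0.0546) and with only the 4 libraries of those groups (0.107). The Dis3L2 call was also lost without either Dis3L2 library, and the double mutant calls without its replicate 2, with adjusted p up to 0.125 over the single omissions. Summed without its top copy, mariner2{}522, the family stood at 0.00 (adjusted p = 0.996) in the double mutant and at -0.68 (adjusted p = 0.0841) in the Dis3L2 mutant.

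HB, a Tc1-like family, summed to 23.1 and 23.1 CPM (w1118), 14.6 and 19.1 (Tailor mutant), 13.2 and 11.3 (Dis3L2 mutant) and 13.2 and 12.7 (double mutant). Every mutant library was below both w1118 libraries. The log2 change was -0.91 ± 0.17 (adjusted p = 0.0211) in the Dis3L2 mutant, -0.83 ± 0.17 (adjusted p = 0.0271) in the double mutant and -0.45 ± 0.17 (adjusted p = 0.284) in the Tailor mutant. Leaving out either library of a tested mutant ended its call, as did either Dis3L2 library for the double mutant, with adjusted p up to 0.173. Without HB{}227, described below, and the other called insertions, a sum chosen after the data were seen, the family stood at -0.46 for the Dis3L2 mutant and -0.37 for the double mutant, neither called. Summed over its copies outside genes alone, HB was at 0.04 (adjusted p = 0.914) in the double mutant and -0.48 (adjusted p = 0.190) in the Dis3L2 mutant.

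NOF summed to 6.31 and 6.15 CPM (w1118), 4.20 and 4.27 (Tailor mutant), 2.34 and 2.01 (Dis3L2 mutant) and 2.82 and 1.55 (double mutant), and no mutant library reached w1118. It fell by 1.52 ± 0.30 on the log2 scale (adjusted p = 0.0235) in the Dis3L2 mutant and by 1.46 ± 0.30 (adjusted p = 0.0254) in the double mutant. The first call was lost without either Dis3L2 library and the second without double mutant replicate 2, with adjusted p up to 0.159. The counts are almost all those of NOF{}1599, a 16462 bp insertion on arm 2R that is 68795 bp from the nearest annotated gene, Pld. That copy went from 6.16 and 5.98 CPM in w1118 and 4.06 and 3.94 in the Tailor mutant to 2.13 and 1.80 for the Dis3L2 mutant and 2.60 and 1.56 for the double mutant.

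Pogo, the element whose transposase is related to several domesticated DNA-binding proteins, summed to 13.6 and 11.6 CPM in w1118. All 6 mutant libraries were lower: 5.75 and 6.85 (Tailor mutant), 7.69 and 7.22 (Dis3L2 mutant) and 7.17 and 4.13 (double mutant). The log2 change passed in the double mutant at -1.12 ± 0.27 (adjusted p = 0.0396). It did not pass in the Tailor mutant, at -0.99 ± 0.26 (adjusted p = 0.137), or in the Dis3L2 mutant, at -0.76 ± 0.26 (adjusted p = 0.129). The double mutant call was lost without its replicate 2 (adjusted p = 0.143) and without either Dis3L2 library, with adjusted p up to 0.222 over the single omissions, and the double mutant was not called against either single mutant (adjusted p = 0.770 and 0.424).

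Transib4 moved in opposite directions. It summed to 3.35 and 3.98 CPM (w1118), 2.70 and 2.10 (Tailor mutant), 6.48 and 5.00 (Dis3L2 mutant) and 1.38 and 1.24 (double mutant). The 4 groups did not overlap, with the Dis3L2 mutant highest and the double mutant lowest. The double mutant was at -1.47 ± 0.28 (adjusted p = 0.0213) against w1118 and at -2.11 ± 0.29 (adjusted p = 0.00849) against the Dis3L2 mutant, while the Dis3L2 mutant at 0.64 ± 0.26 (adjusted p = 0.187) and the Tailor mutant at -0.61 ± 0.27 (adjusted p = 0.353) were not called against w1118. The Tailor mutant was lower than the Dis3L2 mutant, at -1.26 ± 0.27 (adjusted p = 0.0252). Leaving out either double mutant library ended both of the double mutant's calls, and Dis3L2 mutant replicate 1 ended the one against the Dis3L2 mutant. The call between the single mutants was lost without either w1118 or either Dis3L2 library and without Tailor mutant replicate 2, with adjusted p up to 0.150, and with only the 4 libraries of those groups (0.115).

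Markers of other cell types moved with some of these groups. Summed over 7 fat body markers, none at 0 over all libraries together, the level was 187.1 to 231.4 CPM (w1118) and 205.6 to 247.5 (Tailor mutant), against 94.0 to 95.9 (Dis3L2 mutant) and 104.0 to 111.4 (double mutant). Most of that sum was apolpp, for a lipoprotein of the haemolymph, with 163.7 to 204.1 CPM in w1118 and 51.1 to 72.55 CPM in the Dis3L2 and double mutant libraries, where it was the only fat body marker called lower. The median log2 change of the 7 markers was positive, 0.57, 0.56 and 0.38 in the Tailor, Dis3L2 and double mutants, and Apoltp in the Tailor mutant and Fbp1 in the double mutant were called higher. Over 5 cyst and hub cell markers, none at 0, the sum was 99.3 to 100.4 CPM (w1118) and 96.1 to 102.6 (Tailor mutant). It was 155.7 to 158.2 (Dis3L2 mutant) and 111.3 to 122.0 (double mutant), and none of the 5 was called. Most of the higher Dis3L2 mutant sum was Fas3, with 47.5 and 50.7 CPM in w1118 and 97.7 and 94.7 in the Dis3L2 mutant. In both Dis3L2 mutant libraries eya was also above w1118 and tj was below it, while zfh1 and upd1 overlapped w1118. Over 11 midgut markers the sum was 78.4 and 546.5 CPM (w1118), 101.3 and 168.6 (Tailor mutant), 33.4 and 79.4 (Dis3L2 mutant) and 22.2 in both double mutant libraries. None of these markers was at 0 over all libraries together, but several were at 0 in single libraries. Of the 9 midgut genes tested, 0, 2 and 3 were called lower in the Tailor, Dis3L2 and double mutants. Among 14 germline and sperm markers 0, 1 and 2 were called higher in the same order, and none lower. All features were called at 2.00%, 9.22% and 11.6%. The part of these markers in the family changes was not tested.

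**Figure D2:**
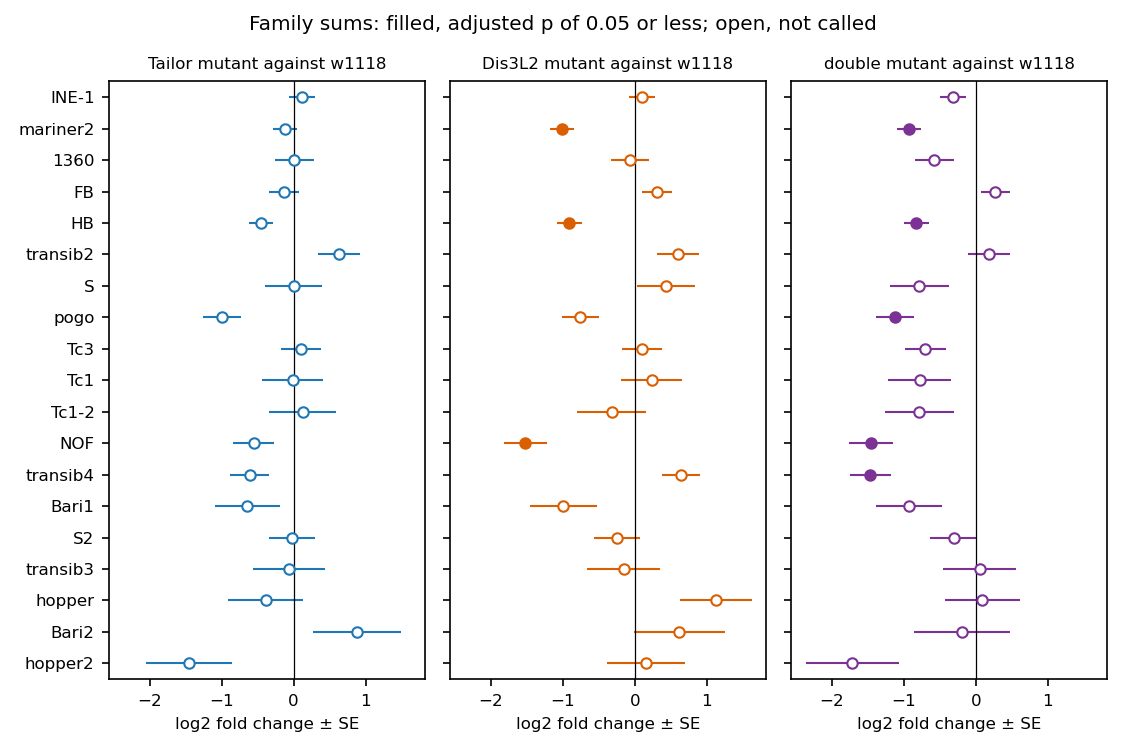
Points give the log2 fold change of each family sum against w1118 with its standard error, for the Tailor, Dis3L2 and double mutants, and families run from the highest mean level at the top to the lowest. Filled points passed the adjusted p of 0.05: none in the Tailor mutant, mariner2, HB and NOF in the Dis3L2 mutant, and those with pogo and transib4 in the double mutant.

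INE-1 itself was not called. It summed to 220.6 and 238.8 CPM (w1118), 221.8 and 274.5 (Tailor mutant), 270.6 and 222.0 (Dis3L2 mutant) and 208.2 and 160.0 (double mutant). Both double mutant libraries were the lowest of the 8, and the log2 changes were 0.11 ± 0.18, 0.10 ± 0.18 and -0.32 ± 0.18, with adjusted p of 0.842, 0.795 and 0.275. Family 1360 had 28.1 and 27.5 CPM (w1118), 21.6 and 34.3 (Tailor mutant), 28.9 and 24.4 (Dis3L2 mutant) and 22.3 and 14.7 (double mutant). Its double mutant libraries were below w1118 (log2 change -0.58 ± 0.27, adjusted p = 0.199), and those of the Tailor mutant lay on both sides of the w1118 values. The FB sum was 17.5 and 19.2 CPM in w1118 and 24.0 and 20.2 in the double mutant, at 0.27 ± 0.21 (adjusted p = 0.403). Of the 14 families that were not called in the double mutant, 10 had a negative log2 change.

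On chromosome 4, which is mostly heterochromatic and dense in INE-1, 344 INE-1 insertions summed to 37.3 and 40.8 CPM (w1118), 29.8 and 59.99 (Tailor mutant), 45.2 and 39.5 (Dis3L2 mutant) and 31.1 and 23.2 (double mutant). The Tailor mutant libraries lay on either side of both w1118 values. Per kb, INE-1 RNA was similar on chromosome 4 (0.394 CPM per kb) and elsewhere (0.417), while 1360 had 0.183 CPM per kb on chromosome 4 and 0.0912 elsewhere. The chromosome 4 figure for 1360 includes 1360{}1533, in an exon of MED26, with 3.89 of the 9.99 CPM. Over all families together, arm 2L held the highest level per kb, 0.553, and X the lowest, 0.227; the 2L figure includes INE-1{}5332 and mariner2{}522.

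The fit of single insertions called few of them. In the Tailor mutant 1 of 184 tested insertions was called, lower, which is 0.543% of them, beside 2.00% of all features tested, and 21 had an unadjusted p under 0.05. In the Dis3L2 mutant 6 were higher and 8 lower, 7.61% of the insertions beside 9.22% of all features. In the double mutant 5 were higher and 5 lower, 5.43% beside 11.6%. The double mutant differed from the Tailor mutant at 8 insertions (14.7% of all features) and from the Dis3L2 mutant at 5 (9.05% of all features), and the single mutants differed from each other at 9 (13.0% of all features). Each of these shares was below that of all features. Over the 6 comparisons 28.5% of all features were called at least once. Of the 184 insertions 22 were, a lower share: 6 of the 102 tested INE-1 copies and 16 of the 82 tested copies of the other families. By family they were 4 of 7 tested FB copies, 3 of 7 mariner2, 3 of 10 pogo, 2 of 3 transib4, 1 of 9 HB, 1 of 6 Tc3, 1 of 4 Tc1-2 and the only tested NOF copy, and none of 14 copies of 1360. With only the 4 libraries compared, 20 of all features were called for double against Tailor, beside 2090 in the main fit. For Tailor against Dis3L2 it was 418 beside 1845. Omitting a w1118 library lowered the calls over all features in each of the 6 comparisons. Without w1118 replicate 1 or without w1118 replicate 2, no insertion call of the Dis3L2 mutant against w1118 was kept, and in the double mutant mariner2{}522 alone was kept.

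HB{}227 gave the sharpest difference. It is a 1298 bp HB copy on X (21626952 to 21628249, plus strand) in an intron of DIP1, which lies on the minus strand and codes for a double-stranded RNA-binding protein. It had 129 and 158 counts in the w1118 libraries, 0 and 5 (Tailor mutant), 1 and 0 (Dis3L2 mutant) and 0 and 0 (double mutant). The RNA was thus present in both w1118 libraries and near absent in all 6 mutant libraries. In the Tailor mutant the log2 change was -5.78 ± 0.87 (adjusted p = 0.0318). The ratio of scaled counts was 242-fold lower in the Dis3L2 mutant (95% counting interval 43.1 to 9585; adjusted p = 0.0100), and the level was at least 85.6-fold lower in the double mutant, with 3 counts put over that group (adjusted p = 0.00920). These calls were lost without either w1118 library or either library of the mutant tested for the Dis3L2 and double mutants, and, for the Tailor mutant, without any w1118, Dis3L2 or double mutant library, with adjusted p up to 0.215. The Tailor mutant call was also lost with only the 4 libraries compared (0.161). Without Tailor mutant replicate 2 the Tailor group is at 0. DIP1 did not follow: it had 86.7 and 85.2 CPM in w1118 and between 81.2 and 119.9 CPM in the mutant libraries, with log2 changes of 0.16, 0.38 and 0.36, none of them called.

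FB copies were the clearest rise. FB{}1698, 2572 bp in an intron of the insulin receptor gene InR on 3R (21609064 to 21611635), had 2 and 5 counts (w1118), 2 and 4 (Tailor mutant), 40 and 32 (Dis3L2 mutant) and 74 and 18 (double mutant). FB{}480, 3615 bp in an intron of CG42238 on 2L (21020333 to 21023947), had 1 and 2, then 2 and 2, then 12 and 12, then 27 and 13 counts. The unplaced copy FB{}CG17600[FB-NOF]a had 5 and 1, then 2 and 4, then 24 and 24, then 63 and 11 counts. In all 3 copies every Dis3L2 mutant and double mutant library was above every w1118 and Tailor mutant library. FB{}1698 rose by 3.66 ± 0.56 in log2 in the Dis3L2 mutant (adjusted p = 0.00976) and by 3.77 ± 0.56 in the double mutant (adjusted p = 0.00920), and FB{}CG17600[FB-NOF]a by 3.21 ± 0.72 (adjusted p = 0.0360) and 3.54 ± 0.72 (adjusted p = 0.0239).

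For FB{}480, with 3 counts in w1118, the ratio of scaled counts was 9.49 (95% counting interval 2.88 to 49.3; adjusted p = 0.0233) in the Dis3L2 mutant and 14.9 (4.74 to 75.3; adjusted p = 0.0107) in the double mutant. Another copy, FB{}ph-p[FB], lies in an intron of the Polycomb group gene ph-p on X and was called in the double mutant, at 3.29 ± 0.83 (adjusted p = 0.0454). It had 1 and 4 counts (w1118), 1 and 8 (Tailor mutant), 13 and 10 (Dis3L2 mutant) and 34 and 11 (double mutant); the call was kept only in the 2 omissions of a Tailor mutant library, and adjusted p reached 0.252. The Tailor mutant was lower than the Dis3L2 and the double mutant at FB{}1698, FB{}480 and FB{}CG17600[FB-NOF]a. With only the 4 libraries compared these calls were lost (adjusted p 0.0522 to 0.0907) except that of FB{}1698 between the single mutants, and leaving out either double mutant library ended the 3 against the double mutant. Of the 3 between the single mutants, FB{}1698 was lost without Dis3L2 mutant replicate 1 alone, and the other copies were each kept in 2 of 8 omissions. By DESeq2, FB{}480 was not called in the Dis3L2 mutant against w1118 (0.0764) or against the Tailor mutant (0.0971). Over single omissions, FB{}1698 lost its calls against w1118 without either w1118 library and without replicate 1 of the mutant (adjusted p up to 0.0924), FB{}480 also without either library of the Dis3L2 mutant or replicate 2 of the double mutant (up to 0.189), and FB{}CG17600[FB-NOF]a without any library of the groups compared and, in the Dis3L2 mutant, without either double mutant library (up to 0.197, with log2 changes from 2.39 to 4.84 for the Dis3L2 mutant and 2.70 to 5.18 for the double mutant). The 3 other tested FB copies, among them FB{}1604 with 57.0% of the FB counts, were not called. FB copies share sequence, so reads counted to these 4 may not be independent, and the labels do not say how reads with several positions were counted.

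InR had 41.7 and 40.4 CPM in w1118, 80.6 and 54.4 for the Dis3L2 mutant, and 41.8 and 36.6 for the double mutant. Its log2 change was 0.72 ± 0.26 (adjusted p = 0.140) for the Dis3L2 mutant and -0.06 ± 0.26 for the double mutant, beside 3.66 and 3.77 for the FB{}1698 copy within it. CG42238 and ph-p were not called in either mutant.

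Pogo copies went both ways. Pogo{}916, a 183 bp piece 37 bp from CG32485 on 3L (3051802 to 3051984), had 1 and 0 counts (w1118), 0 and 0 (Tailor mutant), 18 and 22 (Dis3L2 mutant) and 19 and 7 (double mutant). It was higher by 47.5-fold in the Dis3L2 mutant (95% counting interval 8.04 to 1921; adjusted p = 0.0156) and by 29.05-fold in the double mutant (4.77 to 1191; adjusted p = 0.0256). Against the Tailor mutant it was at least 15.6-fold higher in the Dis3L2 mutant and at least 9.53-fold higher in the double mutant, calls lost without either library of the higher mutant; the one of the double mutant was also lost with only the 4 libraries compared (adjusted p = 0.0841). Its neighbour CG32485 had 27.8 and 26.5 CPM in w1118, 19.6 and 25.3 for the Dis3L2 mutant, and 30.2 and 27.0 for the double mutant, and was not called.

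Pogo{}1350, a 2120 bp copy in an intron of the noncoding gene CR45109, fell from 75 and 91 counts in w1118 to 16 and 37 in the Dis3L2 mutant, a log2 change of -1.44 ± 0.30 (adjusted p = 0.0263). Its counts were 28 and 38 in the Tailor mutant and 71 and 22 in the double mutant, at -1.31 ± 0.29 (adjusted p = 0.0782) and -0.67 ± 0.29 (adjusted p = 0.166). CR45109 itself was listed at 0 in every library. Pogo{}1294, 2122 bp, had 16 and 17 counts in w1118 and 0 and 1 in the Dis3L2 mutant, 27.8-fold lower (95% counting interval 4.66 to 1131; adjusted p = 0.0370). By DESeq2 it was not called (0.0963), and its log2 change ran from -3.93 without Dis3L2 mutant replicate 1 to -6.94 without replicate 2, which leaves that group at 0. Calls against w1118 of the 3 pogo copies were lost without either Dis3L2 library in the Dis3L2 mutant, pogo{}1350 also without either double mutant library, and pogo{}916 in the double mutant without any Dis3L2 or double mutant library, with adjusted p up to 0.187.

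Mariner2{}522, an 879 bp copy on 2L (22004569 to 22005447, minus strand) outside annotated genes, was the most abundant DNA transposon copy. It had 29.1 and 29.8 CPM (w1118), 29.2 and 15.0 (Tailor mutant), 11.3 and 12.7 (Dis3L2 mutant) and 6.20 and 4.36 (double mutant). The Dis3L2 and double mutant libraries were all below the other 4, and the double mutant was the lowest. It fell by 1.30 ± 0.31 in log2 in the Dis3L2 mutant (adjusted p = 0.0458) and by 2.45 ± 0.33 in the double mutant (adjusted p = 0.00658), and stood at -2.03 ± 0.33 in the double against the Tailor mutant (adjusted p = 0.0126, lost without either double mutant library and, at 0.0818, with only the 4 libraries compared). The double mutant call against w1118 was kept in 7 of 8 single omissions and lost without double mutant replicate 2 (adjusted p = 0.0611). The Dis3L2 call was kept in 2 of 8, those without a Tailor mutant library, with adjusted p up to 0.213. The nearest gene, the long noncoding RNA gene CR44916 4149 bp away, also fell in the Dis3L2 mutant, at -1.56 ± 0.39 (adjusted p = 0.0488), and stood at -0.09 ± 0.36 in the double mutant. Its call was kept only in the 2 omissions of a Tailor mutant library, with adjusted p up to 0.265, and was lost by DESeq2 (0.0639), under relative log expression scaling (0.0505) and with the stricter filter of at least 50 counts in 2 libraries (0.0528).

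A pair of other abundant mariner2 copies was below w1118 in the Dis3L2 mutant but above it in the double mutant, and neither was called against w1118. Mariner2{}3947, a 1110 bp copy on 3L 172 bp from CG33217, had 4.90 and 5.09 CPM (w1118), 7.96 and 4.78 (Tailor mutant), 2.86 and 3.25 (Dis3L2 mutant) and 8.19 and 6.75 (double mutant). Its log2 change against w1118 was -0.70 ± 0.28 (adjusted p = 0.181) in the Dis3L2 mutant and 0.59 ± 0.28 (adjusted p = 0.198) in the double mutant. It was called only between those mutants, at 1.29 ± 0.29 (adjusted p = 0.0347, kept only in the 2 omissions of a Tailor mutant library). Mariner2{}1130, of the same length and near the same place, had 5.24 and 5.78 CPM (w1118), 8.36 and 3.94 (Tailor mutant), 3.99 and 2.78 (Dis3L2 mutant) and 8.51 and 7.17 (double mutant), at -0.71 ± 0.37 (adjusted p = 0.298) in the Dis3L2 mutant and 0.51 ± 0.36 (adjusted p = 0.369) in the double mutant. Mariner2{}1821, in an intron of the piRNA pathway Argonaute gene AGO3, had 10 and 7 counts (w1118), 0 and 1 (Tailor mutant), 10 and 17 (Dis3L2 mutant) and 4 and 0 (double mutant). It was called between the single mutants, 31.6-fold lower in the Tailor mutant (95% counting interval 5.20 to 1292; adjusted p = 0.0254), while AGO3 was not called. That call was lost in 5 of 8 single omissions, those of a w1118 or a Dis3L2 library and of Tailor mutant replicate 1, and also by DESeq2 (0.0581) and with only the 4 libraries compared (0.0586).

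Within transib4, its 3 tested copies differed from each other. Transib4{}669, 1391 bp on 2R and 5353 bp from stw, had 6 and 11 counts (w1118), 31 and 23 (Tailor mutant), 54 and 66 (Dis3L2 mutant) and 8 and 1 (double mutant). Both single mutants were above w1118 and the double mutant was not. The log2 change was 3.10 ± 0.48 (adjusted p = 0.00981) in the Dis3L2 mutant, 1.72 ± 0.48 (adjusted p = 0.154) in the Tailor mutant and -0.81 ± 0.57 (adjusted p = 0.371) in the double mutant, which was below the Dis3L2 mutant by -3.91 ± 0.53 (adjusted p = 0.00769) and below the Tailor mutant by -2.53 ± 0.53 (adjusted p = 0.0242). Leaving out either double mutant library ended both of the last calls (adjusted p up to 0.119). The one against the Tailor mutant was also lost without either w1118 library and with only the 4 libraries compared (0.103), and the one against the Dis3L2 mutant without Dis3L2 mutant replicate 1. Leaving out Dis3L2 mutant replicate 1 ended the Dis3L2 call against w1118 (up to 0.0977 over all omissions). The neighbour stw, for a laccase of the cuticle, was at 0.91 ± 0.30 (adjusted p = 0.109) in the Dis3L2 mutant against w1118, and was lower in the double than in the Dis3L2 mutant, at -1.33 ± 0.31 (adjusted p = 0.0386, kept only in the 2 omissions of a Tailor mutant library).

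Transib4{}251, 504 bp on X, was below w1118 in all mutants, with 16 and 35 counts (w1118), 1 and 2 (Tailor mutant), 0 and 4 (Dis3L2 mutant) and 3 and 1 (double mutant). The fall was called in the Dis3L2 mutant, at -3.38 ± 0.82 (adjusted p = 0.0464), and in the double mutant, at -3.40 ± 0.84 (adjusted p = 0.0433), and the Tailor mutant was 16.7-fold lower (95% counting interval 5.41 to 83.9) with an adjusted p of 0.0719. Without any 1 library of the groups compared these 2 calls were lost, the Dis3L2 one also without either double mutant library, with adjusted p up to 0.274 and the log2 change in the Dis3L2 mutant between -7.52 and -2.65, and DESeq2 called neither (0.100 and 0.0940). Transib4{}1579, 9471 bp, was at -1.03 ± 0.33, 0.07 ± 0.32 and -1.07 ± 0.33 in the Tailor, Dis3L2 and double mutants and was not called.

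Tc1-2{}3905, 1436 bp on chromosome 4 overlapping an exon of fuss on the other strand, had 1 and 2 counts (w1118), 10 and 15 (Tailor mutant), 11 and 18 (Dis3L2 mutant) and 12 and 2 (double mutant). It was 11.5-fold higher in the Dis3L2 mutant (95% counting interval 3.56 to 58.9; adjusted p = 0.0149, lost without either library of the 2 groups, up to 0.146, and by DESeq2, at 0.0584), and the Tailor mutant ratio was 8.46 (2.58 to 43.8) with an adjusted p of 0.0593. Fuss, which codes for a Ski and Sno family protein, was not called. Tc3{}3424 had 10 and 22 counts (w1118), 8 and 13 (Tailor mutant), 15 and 35 (Dis3L2 mutant) and 5 and 2 (double mutant), and was lower in the double than in the Dis3L2 mutant at -2.80 ± 0.55 (adjusted p = 0.0258, kept only in the 2 omissions of a Tailor mutant library).

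**Figure D3:**
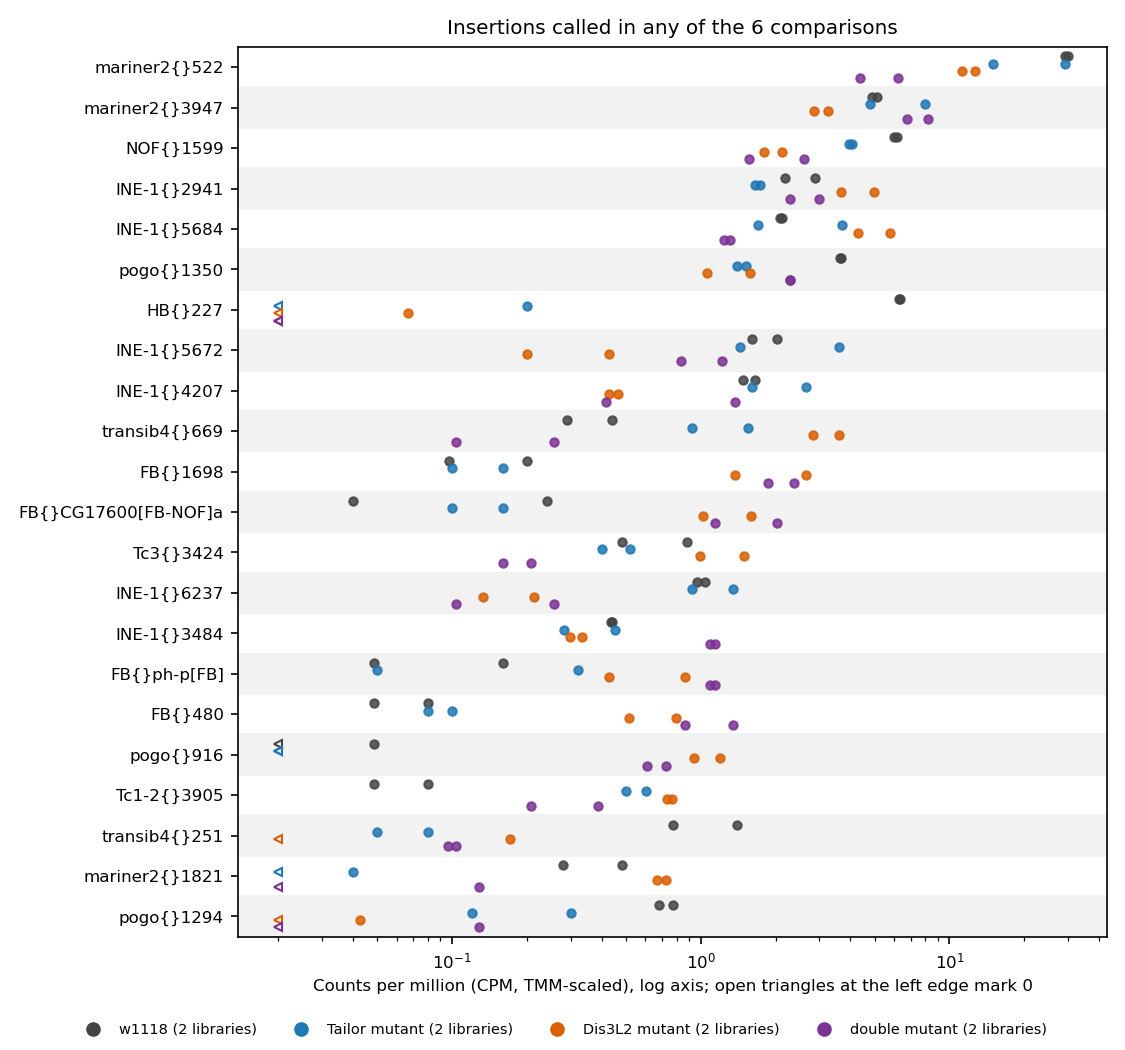
Each point is 1 library's level of an insertion, in TMM-scaled CPM on a log axis, for the 22 insertions called in at least 1 of the 6 comparisons, with open triangles for libraries at 0. HB{}227 is near 6.3 CPM in both w1118 libraries and at 0.201 CPM or lower in all others, and the FB copies are higher in the Dis3L2 and double mutant libraries.

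The 6 called INE-1 copies were 37 to 292 bp long, and 4 of them changed in the same direction as a called gene at or beside them. INE-1{}5672, 44 bp in an exon of the serpin gene Spn28Da, had 42 and 40 counts (w1118), 72 and 36 (Tailor mutant), 3 and 10 (Dis3L2 mutant) and 38 and 8 (double mutant). It fell in the Dis3L2 mutant by 2.45 ± 0.60 in log2 (adjusted p = 0.0463) and Spn28Da fell with it by 1.84 ± 0.37 (adjusted p = 0.0245). INE-1{}5684, 45 bp in an exon of the integrin gene scb, had 87 and 100 counts in the Dis3L2 mutant against 41 and 12 in the double mutant, a log2 difference of -1.96 ± 0.41 (adjusted p = 0.0302), beside -1.32 ± 0.17 (adjusted p = 0.00608) for scb. INE-1{}2941, 9 bp from the mitochondrial import gene Tim17a1, and INE-1{}4207, 39 bp from CR42546, were called between the single mutants in the same direction as those neighbours, which were also called. Except for the scb call, which held in 7 of 8 single omissions and was lost without double mutant replicate 2, these gene and INE-1 calls were lost in 5 or more of the 8, with adjusted p up to 0.230. The CR42546 call was lost in all 8 and also by DESeq2 (0.200) and with no filter (0.0616). With only the 4 libraries compared the calls of INE-1{}2941 (0.109), Tim17a1 (0.162), INE-1{}4207 (0.0732) and CR42546 (0.101) were lost. INE-1{}5672 was also called between the single mutants, higher in the Tailor mutant by 2.92 ± 0.60 (adjusted p = 0.0219), and Spn28Da was called in the same direction. Over single omissions these calls were lost only without a Dis3L2 library. Their standing with only the 4 libraries compared is not given here.

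INE-1{}6237 did not follow its gene. It is a 292 bp copy in an intron of piwi on 2L (10984377 to 10984668, plus strand, piwi on the minus strand), the gene for the nuclear Argonaute of the piRNA pathway. It had 20 and 26 counts (w1118), 27 and 23 (Tailor mutant), 2 and 5 (Dis3L2 mutant) and 8 and 1 (double mutant). It fell in the Dis3L2 mutant by 2.45 ± 0.53 in log2 (adjusted p = 0.0316) and in the double mutant by 2.25 ± 0.53 (adjusted p = 0.0366), while piwi had 8.78 and 9.59 CPM in w1118 and 6.96 to 10.4 CPM in the mutant libraries and was not called. Its calls against w1118 were lost without either w1118 or either Dis3L2 library, the double mutant call also without either double mutant library, with adjusted p up to 0.178, and DESeq2 called neither (0.0970 and 0.112). INE-1{}3484, 37 bp in an intron of timeout, had 34 and 11 counts in the double mutant against 5 and 7 (Dis3L2 mutant) and 9 and 7 (Tailor mutant), differences of 1.81 ± 0.45 (adjusted p = 0.0491) and 1.61 ± 0.43 (adjusted p = 0.0476). These calls were kept in 2 and 1 of the 8 single omissions and lost by DESeq2 (0.202 and 0.217) and with no filter (0.0714 and 0.0751), and timeout lies on the other strand.

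All called intronic insertions lay on the strand opposite to the gene around them, a comparison chosen after the values were seen. The labels do not say whether the authors counted by strand, and without that RNA of the insertion and of its gene cannot be told apart. Of the 1438 intronic insertions 799 lie on the strand of the gene around them and 639 on the opposite strand. Same-strand copies had 60 counts per kb over all libraries and opposite-strand copies 17.6; in exons the values were 400 for 117 same-strand copies and 30.2 for 100 opposite-strand copies. Of the tested intronic insertions 74 were on the gene's strand and 17 on the opposite strand, which is 9.26% and 2.66% of the intronic copies of each kind. None of the 74 was called in any of the 6 comparisons, and 8 of the 17 (47.1%) were, beside 28.5% of all features called at least once; the other 9 opposite-strand copies were not called. The tested copies of both kinds had similar counts, with medians of 91 and 93 over all libraries, and the opposite-strand ones were longer, with a median of 1298 bp against 460.5 bp. The 8 are HB{}227, FB{}1698, FB{}480, FB{}ph-p[FB], pogo{}1350, mariner2{}1821, INE-1{}6237 and INE-1{}3484. Of these pogo{}1350 overlaps more than 1 gene, as do 2 of the same-strand copies. HB{}227, FB{}1698, FB{}480 and FB{}ph-p[FB] reached 10 counts only in libraries of the groups where they were high. Such copies passed the filter through those groups, so the share called among tested copies is not independent of the filter. The 10 called insertions outside genes and 1 unplaced copy complete the list with the 3 in exons.

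Same-strand copies in exons moved most like their genes. Across 48 of them with a tested gene, the log2 changes of insertion and gene had Pearson correlations of 0.51, 0.63 and 0.46 in the Tailor, Dis3L2 and double mutants, and across 73 same-strand intronic copies 0.00, 0.44 and -0.00. Across 14 opposite-strand intronic copies they were 0.00, 0.15 and -0.16. The points of each correlation share libraries, depth and in part genes, and are not replicates. Of the called insertions with a tested gene around them, 1 (Tailor mutant), 6 (Dis3L2 mutant) and 5 (double mutant), the gene was called in the same direction in 0, 1 and 0 cases.

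**Figure D4:**
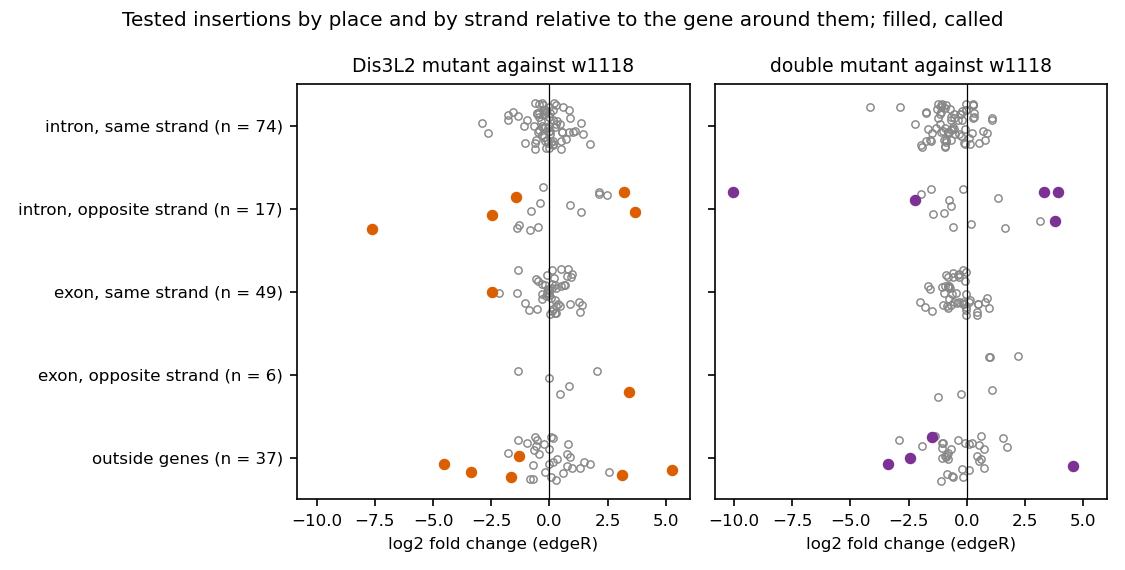
Each point is a tested insertion, placed by its log2 fold change in the Dis3L2 mutant (left) and the double mutant (right) against w1118, in rows by location and by strand relative to the gene around it; filled points were called. The row of 74 same-strand intronic insertions holds no filled point, and the row of 17 opposite-strand intronic insertions holds 5 in each panel.

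In the double mutant most tested insertions were below w1118. The median log2 change of the 184 tested insertions was -0.61, with 135 of them negative, against -0.06 over all features; in the Tailor and Dis3L2 mutants the medians were 0.08 and -0.01, against 0.02 and 0.00. Tested insertions of the other transposon classes had a median of -0.41 in the double mutant. The size of the shift depends on the filter. With no filter 897 of 1791 insertions were negative in the double mutant, with a median of -0.02 against -0.01 over all features. In the Tailor and Dis3L2 mutants 755 and 724 of the 1791 were negative, with medians of 0. Of the 1791, 1116 had 1 to 9 counts in all, so these medians rest mostly on copies near the floor. They cannot show whether such copies shift. With the stricter filter 24 of 31 were negative, with a median of -0.55 against -0.05. The size also depends on the library. The double mutant median was -1.05 without its replicate 1 and -0.44 without its replicate 2. Replicate 2, with 9781275 counts, was the lower library. That median ran from -0.46 to -0.61 in the other single omissions, where between 233 and 271 insertions passed the filter. In the Tailor mutant the median changed sign with the library, from -0.52 without replicate 2 to 0.27 without replicate 1. Summed over all insertions the libraries held 409.4 and 431.0 CPM (w1118), 385.6 and 459.9 (Tailor mutant), 444.8 and 365.9 (Dis3L2 mutant) and 351.2 and 268.9 (double mutant). By location the double mutant was lowest in each class: exonic copies summed to 119.5 ± 23.3 CPM (SD, n = 2) against 149.7 ± 9.7 in w1118, intronic ones to 91.6 ± 19.1 against 141.4 ± 4.5, and those outside genes to 96.4 ± 14.8 against 128.5 ± 1.3.

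Whether the 2 single mutants' log2 changes add up to that of the double mutant was tested in the same fit, a comparison added after the data were seen. Of the 184 insertions 3 departed, beside 4.08% of all features tested, and none of the 19 families, beside 3.55% of all rows of the family table; 22 insertions and 2 families had an unadjusted p under 0.05. Transib4{}669 departed by -5.63 ± 0.71 (adjusted p = 0.0122) and Tc1-2{}3905 by -4.18 ± 0.77 (adjusted p = 0.0364): both were higher in the single mutants and lower in the double mutant than the sum. Pogo{}1350 departed by 2.08 ± 0.42 (adjusted p = 0.0445), being lower in each single mutant than in the double mutant.

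Of 27 tested piRNA pathway genes 0 rose and 1 fell in the Tailor mutant, and 1 rose and 1 fell in each of the Dis3L2 and double mutants, with median log2 changes of -0.07, -0.13 and 0.00. These are 3.70%, 7.41% and 7.41% of the list, beside 2.00%, 9.22% and 11.6% of all features called, so the calls are few and near or below the background. The gene armi, for an RNA helicase of piRNA production, was at -0.74 ± 0.13 in the Tailor mutant (adjusted p = 0.0349). Spn-E, for another germline helicase, rose by 1.03 ± 0.18 in the Dis3L2 mutant (adjusted p = 0.0152), and SoYb, for a Tudor-domain protein, rose by 1.23 ± 0.25 in the double mutant (adjusted p = 0.0255). Del, which codes for a partner of Rhino at piRNA clusters, fell by 1.27 ± 0.13 in the Dis3L2 mutant (adjusted p = 0.00254) and by 0.58 ± 0.13 in the double mutant (adjusted p = 0.0308). The Dis3L2 call of del was kept in all 8 single omissions. Its double mutant call and those of armi, spn-E and SoYb were lost without either w1118 library, and adjusted p reached 0.351. Armi was also lost in every other omission but that of Tailor mutant replicate 2, spn-E without either Dis3L2 library, SoYb without double mutant replicate 1, and del in the double mutant without any Dis3L2 or double mutant library. Armi was not called with only the 4 libraries compared (0.184).

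Of 5 siRNA pathway genes loqs, for a double-stranded RNA-binding partner of Dicer, rose in the Dis3L2 mutant by 0.58 ± 0.12 (adjusted p = 0.0260) and in the double mutant by 0.90 ± 0.12 (adjusted p = 0.00637). Of 16 heterochromatin genes 1 was called in each of these mutants (6.25%), beside 9.22% and 11.6% of all features, which also stand beside the 1 of 5 above. Su(var)3-3, for a histone demethylase, fell by 0.59 ± 0.14 in the Dis3L2 mutant (adjusted p = 0.0452), and Su(var)2-10, for a SUMO ligase, rose by 0.62 ± 0.12 in the double mutant (adjusted p = 0.0198). All 4 calls were lost without either w1118 library, and those other than loqs in the double mutant also without either library of the mutant, with adjusted p up to 0.305. Su(var)3-3 was also lost with no filter (0.0611). None of 4 genes tied to the P element (Irbp, Irbp18, Ku80 and Psi) was called. In all 4 lists the other members did not pass.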

How the data were processed

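Total RNA from dissected testes was sequenced as paired 50-base reads after library preparation with a total RNA kit, per the labels' protocols. The authors deposited whole-number read counts per gene and per transposon insertion, 1 column per library. Per the submitters' processing notes, Trimmomatic 0.36 and HISAT2 were used, with the dm6 build. For the counting tool, its strand setting and how it treated multi-mapping reads: not given in the sources used here. These choices bear on similar copies and on insertions inside genes.

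Counts were tested in R 4.3.3 with edgeR 4.0.16 (limma 3.58.1), using TMM scaling, filterByExpr with a minimum count of 10, quasi-likelihood tests by group over all 8 libraries, and Benjamini-Hochberg adjustment over every feature tested, called at 0.05. A second table summed all transposon insertions of every class to 1 row per family. SE is the size of the log2 change divided by the square root of F. Levels are TMM-scaled CPM computed from the deposited counts. Where a group held 1 to 3 counts, the ratio of summed scaled counts is given with an exact 95% interval, and at 0 with 3 counts over the group. Intervals and floors cover counting error only. Of the insertions 2976 matched the Ensembl 115 annotation and 9 did not. The row for Dis3l2 is CG16940 and that for stw is laccase2.

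Members and gene lists were chosen with earlier results of these data known. Insertions were named by rule: the 8 with the highest levels, the top copy of each family, and the largest called changes at 0.5 CPM or more whose libraries did not overlap. Others named were called in a comparison. No insertion sequence is printed. Alternatives were DESeq2 1.42.0, other scaling, other filters, only the 4 libraries compared, a replicate block, omission of each library, and other family sums. The edgeR fit was tested on simulated data first.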

Additional observations from a re-analysis of the deposited data

Results flagged for a closer look

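For 3 insertions the change in the double mutant differed from the sum of the changes in the 2 single mutants, by edgeR's quasi-likelihood test of that difference. Transib4{}669 departed by -5.63 ± 0.71 in log2 (adjusted p = 0.0122), with both single mutants above w1118 and the double mutant at 8 and 1 counts. Tc1-2{}3905 departed by -4.18 ± 0.77 (adjusted p = 0.0364). It had 10 to 18 counts (0.501 to 0.770 CPM) in the single mutant libraries against 12 and 2 (0.385 and 0.208 CPM) in the double mutant. Pogo{}1350 departed by 2.08 ± 0.42 (adjusted p = 0.0445). It had 16 to 38 counts (1.07 to 1.58 CPM) in the single mutant libraries and 71 and 22 (2.28 and 2.29 CPM) in the double mutant. In w1118 it had 75 and 91 (3.64 and 3.65 CPM). The test was chosen after the data were seen. Groups of 2 libraries are too small to flag a library that stands apart.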

How the results depend on the processing

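Among 184 insertions the Tailor mutant's single call became 2 with no filter and 0 with only the 4 libraries compared, with the replicate block, or among insertions outside genes. The Dis3L2 mutant's 14 became 5 with the stricter filter (at least 50 counts in 2 libraries), 26 with only the 4 libraries compared, 7 with the block and 6 outside genes. The double mutant's 10 became 3, 22, 6 and 4. Double against Tailor, 8 became 2 with the stricter filter, 0 with only the 4 libraries and 3 outside genes. Double against Dis3L2, 5 became 8 by DESeq2 and with no filter, 3 with the stricter filter, 11 with only the 4 libraries, 2 with the block and 3 outside genes. Tailor against Dis3L2, 9 became 2, 2 and 3 (stricter filter, only the 4 libraries, outside genes). With only the 4 libraries, calls over all features moved the same way in every comparison. They went from 285 to 5 (Tailor mutant), 1314 to 2531 (Dis3L2 mutant) and 1648 to 3786 (double mutant). Between the mutants, in the order above, they went from 2090 to 20, 1289 to 2152 and 1845 to 418. The block lowered them in every comparison. Leaving out 1 library each gave 0 to 4 calls in the Tailor, 0 to 21 in the Dis3L2 and 1 to 20 in the double mutant, and 0 to 31, 0 to 13 and 1 to 18 between the mutants in the same order.

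Of family sums, the Dis3L2 mutant's 3 calls became 5 with only the 4 libraries and 0 without the top insertion of each family. The double mutant's 5 became 3 with the block, 3 over insertions outside genes and 2 without the top insertions. Without the 22 called insertions, a choice made after seeing the data, both were 0. Leaving out 1 library gave 0 to 1, 0 to 4 and 0 to 5 in the Tailor, Dis3L2 and double mutants. In the double mutant mariner2 changed sign without its top insertion (0.00197) and HB over insertions outside genes (0.0380).

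Relative log expression scaling kept all 47 insertion and 12 family calls, DESeq2 34 and 12, only the 4 libraries compared 31 and 9, and the block 27 and 10, with HB (adjusted p = 0.0576) and pogo (0.0574) lost in the double mutant by the block. The 3 family calls lost with only the 4 libraries were mariner2 double against Tailor (0.107) and Tailor against Dis3L2 (0.0734), and transib4 Tailor against Dis3L2 (0.115). No insertion call changed sign in any alternative. After each group's mean was subtracted, same-numbered libraries of different groups correlated at -0.303 to 0.300, with no common sign. With 2 libraries a group, these values cannot decide whether the numbers pair libraries across groups. Depth limits most copies: 1116 had 1 to 9 counts in all.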

Other observations

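Low in 1 or more genotypes and present in another, at 3 counts or fewer in a group against at least 20 in some other group, were 9 tested insertions. The share of all tested features with this pattern was not determined, so the 9 cannot be called many or few. Besides those described, pogo{}1417 had 24 counts (w1118), 3 (Tailor mutant), 3 (Dis3L2 mutant) and 1 (double mutant), summed over each group, and 1360{}94 had 3, 49, 11 and 28. Neither was called in any comparison. By chromosome arm the insertions summed lower in the double mutant than in w1118 on 2L, at 77.2 ± 18.7 against 124.8 ± 8.0 CPM (SD, n = 2), and on 2R, at 58.1 ± 11.8 against 85.3 ± 0.5. They were also lower on chromosome 4, at 45.3 ± 11.002 against 66.2 ± 3.8, and on 3R, at 27.5 ± 6.2 against 34.4 ± 1.7. On 3L the sums were 60.5 ± 8.6 and 61.7 ± 1.4, and on X 38.9 ± 1.0 and 47.1 ± 0.9. These sums were not tested.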
